A study of Mus musculus with 11 samples.

Results

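The interferon-gamma inducible GTPases described here are 6 genes, Gbp2, Gbp3, Ifi47, Igtp, Irgm1 and Iigp1, measured by 8 of the 22690 probe sets on the array. They comprise every probe set that the platform annotation assigns to 1 of these symbols and to no other gene. The genes were selected on the difference between the genotypes that an earlier reading of these arrays had shown, so their values for that comparison are a description and support nothing. The ganglia came from 78-week-old male C57BL mice on normal chow. Of the 11 arrays, 6 were of mice carrying the apoE-/- genotype, which lack apolipoprotein E, a lipid carrier, and develop atherosclerosis, and 5 were of wild-type mice. Sympathetic ganglia were cut from fresh-frozen tissue by laser capture, so each sample is a mixture of nerve cells, glia and whatever vessels, immune cells and fat lay within the cut. The labels do not tie arrays to animals, and p-values measure the spread between these samples, which may be partly technical.

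Interferon-gamma is a cytokine made mainly by T and natural killer cells. It binds a receptor made of Ifngr1 and Ifngr2, activates the kinases Jak1 and Jak2, and induces transcription factors such as Irf1. Among the genes that follow are 2 families of GTPases that act inside cells against microbes living in vacuoles. The guanylate-binding proteins are large GTPases that assemble on pathogen-containing vacuoles and on bacteria, and Gbp2 and Gbp3 belong to them. The immunity-related GTPases are smaller: Ifi47, also known as Irgd, and Iigp1, also known as Irga6, are effectors that load onto the vacuole, while Irgm1 and Igtp, also known as Irgm3, are regulators that sit on the cell's own membranes and hold the effectors inactive there. Type I interferons induce many of the same genes.

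A short sequence recurs in the promoters of 4 of the 5 genes with a promoter window, and some of the genes are neighbours. In the RefSeq order of protein-coding genes (assembly GRCm38.p6), Gbp2 and Gbp3 flank Gbp2b on chromosome 3, and Igtp is next to Irgm2 on chromosome 11, where Irgm1 and Ifi47 are also found, with 7 genes between them. Between Ifi47 and Igtp lie 133 genes, and Iigp1 is on a chromosome that holds none of the other 5. The window from 250 bases before to 50 bases after an annotated start was available for 5 of the 6 genes. The core of the interferon-stimulated response element, the site read by interferon regulatory factors, was searched on both strands as a pair of GAAA with 2 bases of any kind between them, which reads as a pair of TTTC on the other strand. It was found in 4 of those 5 genes, Gbp2, Gbp3, Igtp and Irgm1, in each case before the start. Of all 32851 windows of the same length, 3.44% held it, and of 27025 genes 3.99% had at least 1 window with it. The matches are printed with up to 20 bases on each side, 5′ to 3′ on the strand of the gene, with the matched letters in capitals, because these are the promoters of genes whose values are described below.
Gbp2: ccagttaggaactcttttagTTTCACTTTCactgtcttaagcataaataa
Gbp3: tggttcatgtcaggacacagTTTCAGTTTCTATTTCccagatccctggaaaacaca
Irgm1: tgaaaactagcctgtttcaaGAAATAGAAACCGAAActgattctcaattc
Igtp: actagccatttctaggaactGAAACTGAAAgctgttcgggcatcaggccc
The Gbp2 stretch is chr3:142620584-142620633 and that of Gbp3 chr3:142559979-142560034, both on the plus strand. The Irgm1 stretch is chr11:48871421-48871470 on the minus strand and that of Igtp chr11:58199502-58199551 on the plus strand, all in GRCm38.p6. Gbp3 and Irgm1 each held 2 overlapping matches, and a further annotated start of Gbp3 had none in its window. The Ifi47 window held no match, which says only that these letters are not in that window. A match is a description of sequence and not evidence of binding in these ganglia.

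Apoe gave signals of 7.2 to 268.2 in the Apoe-deficient arrays and of 11830.3 to 19649.2 in the wild-type arrays, so each array lay on the side its genotype label gives. The noradrenergic enzyme gene Th read 9686.1 to 16933.3 and 12518.2 to 18058.1, and Dbh 7993 to 15447.8 and 12541.9 to 18660.1 in the Apoe-deficient and wild-type arrays. Deposited median signals ran from 163 to 188.6 per array. The spiked hybridisation controls had a low level in Apoe-deficient replicates 2, 3 and 4. They had a middle level in wild-type replicates 3, 4 and 5 together with replicate 5 of the Apoe-deficient group, and a high level in the other 4 arrays. No wild-type array was at the low level, and the values of the GTPases within levels are given below. Over the 8433 genes tested in limma, 163 were called at a Benjamini-Hochberg adjusted p under 0.05, 106 higher and 57 lower in Apoe-deficient ganglia.

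Of the guanylate-binding proteins, Gbp2 was higher in all Apoe-deficient arrays. Its signal was 302.8 at the lowest, 417.65 at the median and 688.1 at the highest in the 6 Apoe-deficient arrays, and 222.9, 217.1, 176.4, 239.1 and 290.3 in wild-type replicates 1 to 5. The groups did not overlap, although replicate 6 of the Apoe-deficient group and replicate 5 of wild type lay close to each other. After quantile normalisation the mean log2(signal + 16) was 8.77 ± 0.42 (SD, n = 6) against 7.92 ± 0.25 (SD, n = 5), a difference of 0.85 (SE 0.19). On this scale the change of low genes is understated. The mean deposited signal was 1.92-fold that of wild type. A further Gbp2 probe set, of a kind whose probes can also read related genes, gave a smaller difference of 0.66 (SE 0.23). Its groups overlapped, with 5 of 6 Apoe-deficient arrays above all wild-type arrays. In samples of mixed tissue, more cells that carry a transcript and more transcript per cell cannot be told apart, and this holds for every value here.

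Gbp3, the neighbouring family member, was uneven among the Apoe-deficient arrays. Its signals there ran from 208.8 through a median of 362.6 to 517.9, while the 5 wild-type arrays lay close together at 223.4, 201.7, 240, 229.3 and 210.7. In these deposited signals Apoe-deficient replicate 6 was inside the wild-type range and the other 5 were above it. After normalisation replicate 6, at 7.72, was below all wild-type arrays, the lowest of which was at 7.77. The spread between arrays was 0.49 (SD, n = 6, log2 scale) in the Apoe-deficient group and 0.12 (SD, n = 5) in wild type, and the difference of means was 0.56 (SE 0.20). Members of this family are close in sequence, so a probe set may read more than 1 of them.

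Among the immunity-related GTPases, the effector gene Ifi47 resembled Gbp2. Apoe-deficient arrays gave signals of 328.1 to 619.6 with a median of 409.1. Wild-type replicates 1 to 5 gave 226.3, 253.4, 297.6, 170.4 and 260.8. All 6 Apoe-deficient arrays were above all 5 wild-type arrays, and the log2 means were 8.79 ± 0.36 (SD, n = 6) and 7.99 ± 0.23 (SD, n = 5). The difference was 0.80 (SE 0.17).

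Iigp1, the other effector gene, differed less. Its main probe set gave signals of 447.5 to 663.1 with a median of 544.15 in the Apoe-deficient arrays, and 584.5, 355.7, 434.3, 350.9 and 504.1 in wild-type replicates 1 to 5. The groups overlapped: 2 of 6 Apoe-deficient arrays were above all wild-type arrays, where replicate 1 was the highest. The difference was 0.30 (SE 0.14), and the second Iigp1 probe set gave 0.42 (SE 0.18) with 3 of 6 above.

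Of the regulator genes, Irgm1 had a difference between those of Gbp3 and Iigp1, and Igtp had the lowest of the 6. Irgm1 had signals of 340.8 to 641.6 with a median of 425.4 in the Apoe-deficient arrays and of 332.9, 287.7, 427.9, 314 and 346.4 in wild type. Only Apoe-deficient replicates 2, 3 and 4, the arrays of the low control level, were above all wild-type arrays, and the difference was 0.34 (SE 0.16). Igtp read 782.8 to 1043.2 with a median of 879.75 in the Apoe-deficient arrays and 1051.6, 764.6, 965.3, 755.8 and 931.7 in wild type. No Apoe-deficient array exceeded the highest wild-type array, and the difference was -0.01 (SE 0.11), or 0.01 without the quantile step. Whether the members differ from each other in their response was not tested.

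**Figure D1:**
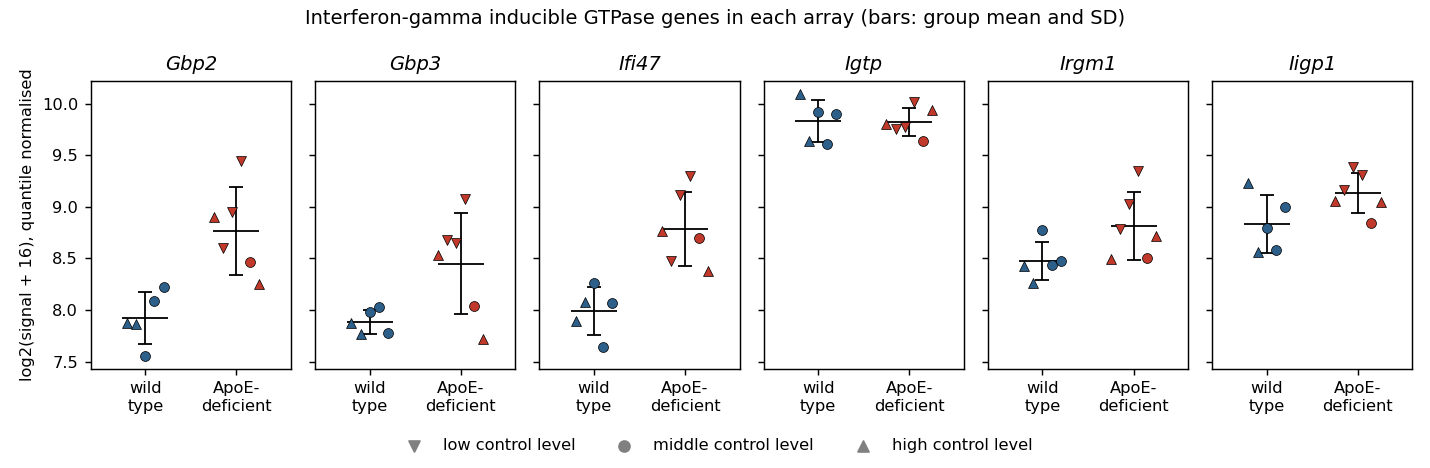
Normalised log2(signal + 16) of the 6 GTPase genes in 5 wild-type and 6 Apoe-deficient arrays; each point is an array, its shape the level of the hybridisation controls, and the bars are group means with SD. The groups do not overlap for Gbp2 and Ifi47, while the Igtp means are 9.82 and 9.83.

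All 6 genes passed the filter on low values in every array, and 5 of 6 had a mean above wild type. Over all 8433 genes tested 43% had a difference above 0. The groups did not overlap, with Apoe-deficient arrays higher, for 2 of the 6, against 1.46% of all genes. The same 2, Gbp2 and Ifi47, were called by limma, where 1.93% of all genes were called, 1.26% as higher and 0.676% as lower. Since the genes were chosen with this contrast known, nothing is read from those counts. The median difference was 0.45 for the 6 genes and -0.04 for all genes.

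The calls of Gbp2 and Ifi47 rested on many of the arrays. With 1 array left out the number of called genes among the 6 ran from 0 to 3. None was called when wild-type replicate 1, 2 or 5 or replicate 3 or 4 of the Apoe-deficient group was left out. Ifi47 alone was called when wild-type replicate 3 or replicate 2 of the Apoe-deficient group was left out. Over these 11 fits the difference of Gbp2 stayed between 0.71 and 0.96 and that of Ifi47 between 0.70 and 0.89.

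The level of the hybridisation controls moved with 3 of the 6 GTPases inside the Apoe-deficient group. For Gbp3, Irgm1 and Iigp1 the 3 arrays of the low level were above the 3 other Apoe-deficient arrays. For Gbp2, Ifi47 and Igtp the low arrays overlapped with the others. Without the low arrays, a setting chosen after seeing the data, the differences were 0.61 for Gbp2 (SE 0.19), 0.62 for Ifi47 (SE 0.16), 0.21 for Gbp3 (SE 0.18), 0.15 for Iigp1 (SE 0.16), 0.10 for Irgm1 (SE 0.14) and -0.04 for Igtp (SE 0.14), and limma called 0 of the 6. With the level as a block it also called 0 of the 6. In both settings limma gave 2 of the 6 an unadjusted p under 0.05. Within the high level, 2 arrays against 2, Gbp2 differed by 0.71, Ifi47 by 0.58, Gbp3 by 0.31, Irgm1 by 0.26, Iigp1 by 0.16 and Igtp by 0.00. The middle level held 1 Apoe-deficient array and 3 wild-type arrays, with 0.51 for Gbp2, 0.71 for Ifi47, 0.11 for Gbp3, 0.05 for Iigp1, -0.06 for Irgm1 and -0.18 for Igtp. Against the differences over all arrays, those of Gbp3, Irgm1 and Iigp1 were smaller by more than a factor of 1.5 without the low arrays. Within the middle level those of Gbp2, Gbp3 and Iigp1 were smaller by more than that factor, and that of Irgm1 changed sign. Within the high level those of Gbp3 and Iigp1 were smaller by more than that factor.

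**Figure D2:**
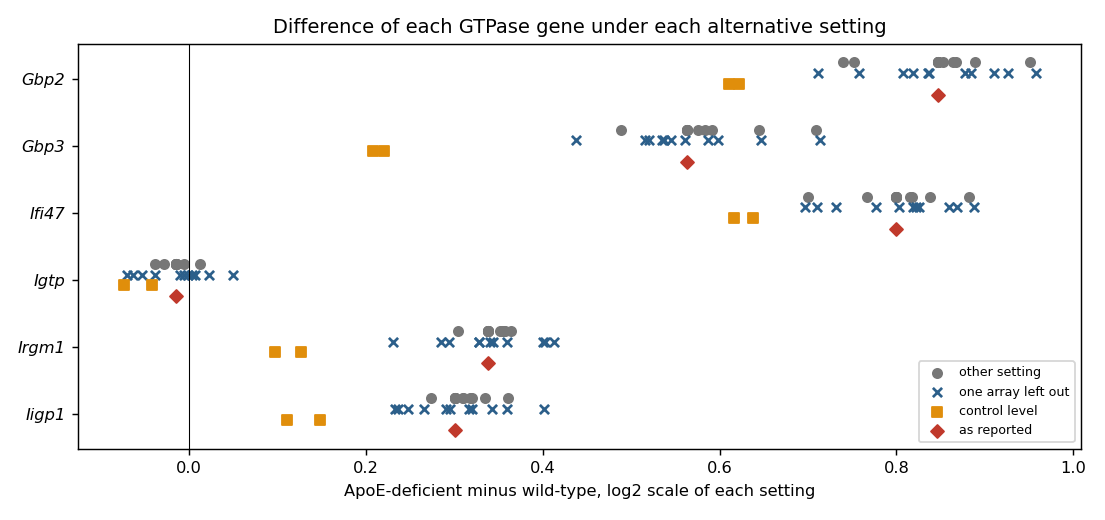
Difference between Apoe-deficient and wild-type means of each GTPase gene on the log2 scale as reported (diamond), with 1 array left out (crosses), with the control level as a block or without the low arrays (squares), and under the other settings (circles). Gbp2 and Ifi47 stay above 0.6 in all of them, and Igtp lies on both sides of 0.

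Among the Apoe-deficient arrays the 6 genes varied together. Each value was set against the mean of its own genotype, which leaves the difference between genotypes out. Over the 11 arrays, which share every array-wide effect, the 15 pairs of genes had a median Pearson correlation of 0.51, from 0.13 for Gbp3 with Igtp to 0.78 for Igtp with Iigp1. The median Spearman correlation was 0.48, and over all pairs of tested genes the median Pearson correlation was 0.01. Gbp2 and Gbp3 had 0.75, but 0.91 among the 6 Apoe-deficient arrays and -0.30 among the 5 wild-type arrays. Igtp with Iigp1 was the other way round, with 0.49 among the Apoe-deficient and 0.94 among the wild-type arrays. Over the 15 pairs the median was 0.67 in the Apoe-deficient arrays, with all 15 above 0. The lowest there were pairs with Igtp, at 0.25 for Gbp3 and 0.30 for Ifi47. The median was 0.06 in the wild-type arrays, from -0.56 to 0.94, with 8 of 15 above 0. The difference between the groups in this was not tested.

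Single arrays carried much of that pattern. Apoe-deficient replicate 4 was the highest of its group for 5 of the 6 genes, all but Iigp1, and replicate 6 the lowest for 3, Gbp2, Gbp3 and Ifi47. Leaving out these 2, the arrays farthest from the median, brought the median pair correlation to 0.29. Set against the mean of genotype and control level together, it was 0.34 over the 10 arrays that have a partner in their level. These correlations are descriptions without a test.

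**Figure D3:**
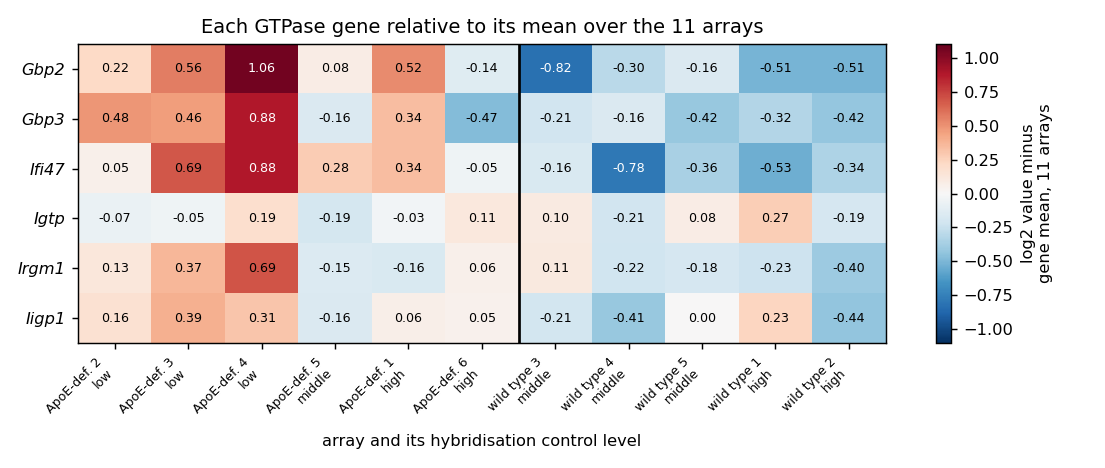
Log2 value of each GTPase gene minus its mean over the 11 arrays; columns are arrays, ordered by genotype and by hybridisation control level. Apoe-deficient replicate 4 reaches 1.06 for Gbp2 and 0.88 for Gbp3 and Ifi47, and wild-type values of Gbp2, Gbp3 and Ifi47 are all below 0.

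The genes whose within-group deviations over the 11 arrays were most like the mean of the 6 GTPases were not interferon genes by name. They were Naa20 (r = 0.96), Smim11 (0.93), Atp5l (0.92), Snrnp27 (0.92) and Rps27l (0.91). Their differences between genotypes ran from -0.11 to 0.15 and none was called. The interferon-stimulated genes Rtp4 (0.88) and Ifit1 (0.87) ranked 20 and 26 among the 8427 other genes, and Irgm2 (0.78) ranked 123. Others went the opposite way, among them Ifi35 (-0.78), Tap2 (-0.70), Irf1 (-0.57), H2-Ab1 (-0.52) and Cd74 (-0.48). Of the 81 tested genes of the 5 related lists, 40 had a correlation above 0.

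Of the further guanylate-binding and immunity-related GTPases, 5 of 21 listed genes had a single-gene probe set, 3 passed the filter and 0 were called. Gbp6 had signals of 106.1 to 190.6 with a median of 135 in Apoe-deficient arrays and of 107.1, 59.7, 101.7, 101.8 and 111.7 in wild type. Its difference was 0.54 (SE 0.19, limma adjusted p = 0.14). These deposited signals overlapped, but after normalisation all 6 Apoe-deficient arrays were above all wild-type arrays. Gbp7 differed by 0.23 (SE 0.15, limma adjusted p = 0.38), and another Gbp7 probe set by -0.21. Irgm2, a regulator next to Igtp, differed by 0.21 (SE 0.15, limma adjusted p = 0.42). Gbp2b, which lies between Gbp2 and Gbp3, was below the filter, with signals of 31.5 to 77.9 in Apoe-deficient and 33.3 to 76.4 in wild-type arrays. Gbp8 was lower still at 23.9 to 46.4 and 5.1 to 30.6. At an unadjusted p under 0.05, limma had 1 of the 3 higher and 0 lower. Of all 8433 genes it had 668 (7.92%) higher and 1040 lower. The median difference of the 3 was 0.23.

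Further up the pathway, none of the tested genes of the receptor and its kinases was called. The cytokine gene Ifng was below the filter, at 3.5 to 25.8 in Apoe-deficient and 2.9 to 45.9 in wild-type arrays, where the filter stood at a signal of about 110. The receptor gene Ifngr1 had medians of 793.55 and 764 and a difference of -0.02 (SE 0.18, limma adjusted p = 0.97). Ifngr2 differed by -0.07 (SE 0.14, limma adjusted p = 0.81), its other probe set by 0.35. The kinase gene Jak1 differed by -0.19 (SE 0.11, limma adjusted p = 0.32), with other Jak1 probe sets at -0.09 and, below the filter, 0.54. Jak2 differed by 0.08 (SE 0.15, limma adjusted p = 0.81) and the factor gene Irf1 by -0.10 (SE 0.12, limma adjusted p = 0.66). Of 16 listed receptor and signalling genes 13 were tested, 0 were called, and the median difference was -0.02. At an unadjusted p under 0.05, 1 was higher, Irf8, a myeloid and B cell factor (0.54, SE 0.20, limma adjusted p = 0.17), and 1 lower, Stat3 (-0.40, SE 0.16, limma adjusted p = 0.20). When every probe set was tested as its own feature, 1 gene of this list was called, Stat3, whose other probe sets gave -0.86 and -0.32. An adjusted p above the threshold does not show that the groups were alike.

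Among other targets of interferon-gamma, 4 genes rose. Of 38 listed genes 25 were tested, 4 rose, 0 fell, and the median difference was 0.13. At an unadjusted p under 0.05, limma had 9 of the 25 higher and 0 lower. The 4 that rose are all of antigen presentation by MHC class II: Cd74, the invariant chain gene (1.38, SE 0.22, limma adjusted p = 0.0058), H2-Aa (0.82, SE 0.10, limma adjusted p = 0.00087), H2-Eb1 (1.03, SE 0.15, limma adjusted p = 0.0023) and H2-Ab1 (0.71, SE 0.17, limma adjusted p = 0.042). Cd74 read 2044.6 to 5462.8 in Apoe-deficient and 963.9 to 1328 in wild-type arrays. H2-Ab1 was called in only 2 of the 11 fits without 1 array, those without Apoe-deficient replicate 3 or 6, with differences of 0.60 to 0.82 over the 11. The other H2-Ab1 probe sets gave 1.43 and 1.24, and the mean of its probe sets 1.13 (limma adjusted p = 0.0058). Another H2-Aa probe set gave 1.23. Cd74 and H2-Aa were called in all alternatives, and H2-Eb1 in all but that without the low control arrays.

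Of 40 listed type I interferon-stimulated genes 26 were tested, 1 rose, 0 fell, and the median difference was 0.11. At an unadjusted p under 0.05, limma had 4 higher and 1 lower. The gene that rose was Ifitm1, a membrane protein that restricts virus entry. Its signals were 167.9 to 326 with a median of 221.2 in Apoe-deficient arrays and 160.1, 160.9, 84.3, 98.6 and 113.7 in wild type, without overlap (0.87, SE 0.19, limma adjusted p = 0.035). It lost its call when wild-type replicate 3 or 5 or replicate 3 or 4 of the Apoe-deficient group was left out, where the difference was 0.75 to 0.87. Of these genes 29 had a promoter window, and the same pair of GAAA was in 13 of them, and in 7 of 8 of the further GTPase genes with a window. It was in 3 of 24 other interferon-gamma targets, 2 of 14 receptor and signalling genes and 0 of 10 autophagy genes.

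The GTPases are loaded onto vacuoles with help from the autophagy proteins that conjugate LC3 and GABARAP. Of 14 listed autophagy genes all were tested, 0 rose, and 1 fell, Ulk1, the kinase gene that starts autophagy (-0.84, SE 0.14, limma adjusted p = 0.0075). Its signals were 319.9 to 449.8 with a median of 368.2 in Apoe-deficient and 881.1, 783.4, 593.1, 550.1 and 651.3 in wild-type arrays, without overlap. Another Ulk1 probe set, below the filter, gave -0.56. Ulk1 was called in 24 of 25 alternatives, the exception being that without the low control arrays (-0.68, limma adjusted p = 0.17). The median of the list was -0.11.

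**Figure D4:**
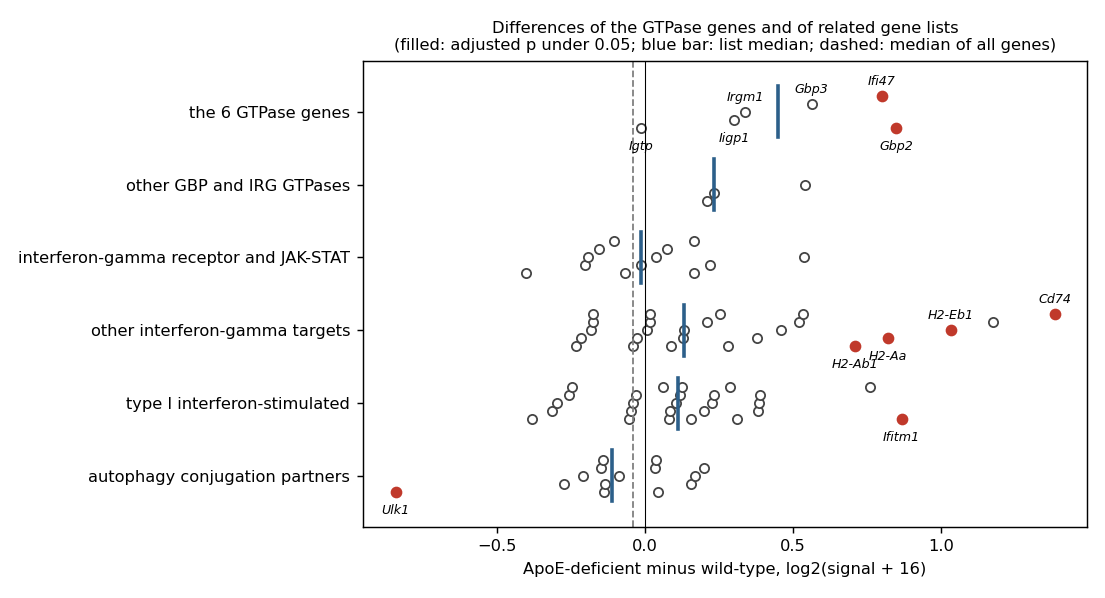
Differences between Apoe-deficient and wild-type ganglia on the log2(signal + 16) scale for the 6 GTPase genes and for the tested genes of 5 related lists; each circle is a gene, filled where limma's adjusted p is under 0.05, and the blue bar is the list median. The receptor and JAK-STAT list is centred at -0.02, and the called genes of the other lists are Cd74, H2-Eb1, H2-Aa, H2-Ab1, Ifitm1 and Ulk1.

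Among markers of cells that can carry these GTPases, limma called some of macrophages and of B and plasma cells, and none of the other cell types listed. Of 13 macrophage markers 7 rose and 0 fell, where 1.26% of all genes were called as higher. Adgre1 (0.07), Cd14 (0.02) and Laptm5 (0.16) differed little. The summed signal of the 13 was 10255.2 to 15122.7 in Apoe-deficient and 6005.2 to 7803.1 in wild-type arrays. Apoe-deficient replicate 4, highest for most of the GTPases, also had the highest macrophage sum. The summed signal of 10 noradrenergic neuron markers was 54287.7 to 61856.6 in the 3 arrays of the low control level and 74488 to 110839.6 in the other 8. Limma called 0 of these, with 1 higher and 2 lower at an unadjusted p under 0.05. Of all 8433 genes, 668 were higher and 1040 lower by that measure. For 7 satellite glia markers the sum was 11669 to 21759.2 in Apoe-deficient and 11109.6 to 18602.3 in wild-type arrays, with 0 called by limma and 0 higher and 1 lower at an unadjusted p under 0.05. Over the 11 arrays, the within-group deviations of the GTPase mean had r = 0.75 with those of the macrophage list, 0.58 with satellite glia, 0.54 with fibroblasts and 0.28 with white adipocytes. The correlation was 0.09 with endothelial cells, -0.14 with T and natural killer cells, -0.48 with noradrenergic neurons and -0.63 with B and plasma cells. Of 10 B and plasma cell markers 8 were measured, 2 rose and 0 fell, and the sum was 12435.2 to 66693.5 against 1149 to 17315.2. Of 18 markers of T and natural killer cells, the sources of interferon-gamma, 16 were measured, 2 passed the filter and limma called 0. At an unadjusted p under 0.05, 1 of these 2 was higher, Ccl5, which is also in the list of other interferon-gamma targets. Below the filter and without a test, Cd3g read 58.1 to 209.8 in Apoe-deficient and 20.5 to 51.9 in wild-type arrays. Cd3d read 14.3 to 198.3 and 13.6 to 25.2. Others below the filter were lower, among them Cd247 (-0.34), Gzmb (-0.26) and Prf1 (-0.23). Without the filter the median difference of the 16 was 0.34. The sum of the 16 was 816.4 to 2244.5 against 686.2 to 1309.8. Its highest value, in Apoe-deficient replicate 5, included 737.7 from Ccl5. The summed level of 13 measured endothelial markers was 3136.4 to 4531.8 against 3260.5 to 4348.6, with 0 called by limma and 2 higher and 2 lower at an unadjusted p under 0.05. For 8 fibroblast markers it was 10876.8 to 17133.7 against 8396.6 to 12700.2, and for 7 white adipocyte markers 4369 to 31273.6 against 12908.1 to 40489.6, each with 0 called by limma and, at an unadjusted p under 0.05, 3 fibroblast and 0 adipocyte markers higher and 0 lower. No marker of any list was at 0 in all arrays. The part of these cells in the GTPase differences was not tested.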

How the data were processed

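For 11 arrays of total RNA the authors deposited probe set intensity values on a linear scale, made with GCOS 1.4 per the submitters' processing notes. The sources used here do not say how GCOS formed the signal and give no detection call. From the values, each array had been scaled to a 2% trimmed mean near 500.2 and not quantile normalised. Tests left out the 64 control probe sets. Among the other 22626, 20380 had 1 gene symbol, 691 several and 1555 none. The scale is log2(signal + 16), quantile normalised here. A probe set was kept if it exceeded the 40th percentile of all values (a signal of about 110) in 5 or more arrays. The brightest single-gene probe set on average stood for its gene. The test was limma 3.58.1 in R 4.3.3 (intensity trend, two-sided, Benjamini-Hochberg over 8433 genes, threshold 0.05), which gives each SE and adjusted p; SEs of further probe sets come from the same model over all probe sets kept. The code was tested on simulated data. The number of arrays limits the precision.

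The GTPases and all gene lists were chosen with earlier results of these data known. Named genes were set by rule: the 6 GTPases, the receptor and kinase genes with Irf1, every other measured GTPase of these families, the called genes of each list (otherwise the 2 of smallest p), and the 5 genes of most similar deviations. A gene of the receptor and signalling list and a further promoter motif that was searched are not reported here. Alternatives covered the step between arrays, pseudocount, filter, probe set rule, array weights, variance model, a replicate block and leaving out each array. The control level settings were added after seeing the data. Control levels were set by the 2 widest gaps in the mean of 9 hybridisation control probe sets. Promoter sequences are RefSeq's (GRCm38.p6), matched by symbol. Figures were drawn with matplotlib 3.10.9.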

Additional observations from a re-analysis of the deposited data

How the results depend on the processing

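The 163 calls became 668 with array weights, 45 with the control level as a block, 24 without the low control arrays and 75 to 267 with 1 array left out. Of the 6 GTPases, 2 were called, and 1 without the filter or with the mean of a gene's probe sets (Ifi47 in both), 0 in either control level setting, and 0 to 3 with 1 array left out. The 6 called pathway genes became 3 without the low control arrays and 4 to 6 with 1 array left out. Gbp2, Gbp3, Ifi47, Irgm1 and Iigp1 kept a difference above 0 in every alternative that measured them; Igtp changed sign in 5 of 25. Gbp3 differed by 0.22 when the control level was blocked and by 0.21 when the low arrays were dropped. Gbp3 was below the stricter filter. Replicate numbers are shared by the groups, but same-numbered arrays deviated together (r over 0.1) in only 1 of 5 pairs, and 1 wild-type and 0 Apoe-deficient arrays correlated best with their own number. With the replicate block 185 genes were called, 3 of them among the 6 GTPases (Gbp3 added), and 4 pathway genes, without H2-Ab1 and Ifitm1. Low signals limit Ifng, Gbp8 and Gbp2b, which had no test.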

Other observations

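Some interferon genes below the filter were higher in part of the Apoe-deficient arrays; they were picked after their values were seen and have no test. Cxcl9, a chemokine gene that interferon-gamma induces and that draws activated T cells, read 183.7 in Apoe-deficient replicate 4 and 127.8 in replicate 5, while the other 4 Apoe-deficient arrays read 19.3 to 78 and wild-type arrays 9.7 to 49.3. Fcgr1, the high-affinity Fc receptor gene of myeloid cells, read 89.7 to 238.6 in Apoe-deficient and 41.7 to 97.9 in wild-type arrays, also with its highest value in replicate 4. Zbp1, a sensor gene of Z-form nucleic acids, read 39.7 to 179.2 and 9 to 95.5. Higher on average as well were Ifi204, Upp1 and Gbp8, with differences of 0.86, 0.68 and 0.63. Ifi204 read 23.3 to 69.7 in Apoe-deficient and 12.3 to 22 in wild-type arrays. Upp1 read 6.2 to 56.9 and 8.3 to 34.4. The remaining listed genes below the filter were lower or differed little on their main probe sets. Socs1 read 39.9 to 80.3 in Apoe-deficient and 58.9 to 145.6 in wild-type arrays. The differences were -0.22 for Ido1, -0.21 for Nos2, -0.08 for Cxcl11 and 0.06 for Ciita. Another probe set, also below the filter, gave 0.61 for Cxcl11 and -0.46 for Ciita.

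Among tested genes that limma did not call, the groups also did not overlap for Casp1, the inflammasome protease gene (0.53, SE 0.16, limma adjusted p = 0.096), and for Parp14 (0.25, SE 0.10, limma adjusted p = 0.17), both chosen after their values were seen. Ccl5, a chemokine gene of T cells and macrophages, read 127.9 to 737.7 in Apoe-deficient and 78.2 to 177.7 in wild-type arrays (1.17, SE 0.35, limma adjusted p = 0.097), highest in replicates 5 and 6, where Gbp2 and Gbp3 were lowest.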
